A study of Drosophila melanogaster with 29 samples.

Results

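The comparison concerns 2 split-GAL4 driver lines, SS02238 and SS30295, that were both used to label D7 neurons of the adult Drosophila brain. Its members are the 4 bulk RNA-seq libraries that the labels give to D7, 2 of line SS02238 and 2 of line SS30295, of 14 bulk libraries and 29 samples in the series. A gene entered the comparison with an FPKM (a fragment count divided by gene length and by library size) of at least 1 in at least 2 of the 4 libraries, and 5672 of 17612 genes did. All 4 libraries came from female flies aged 3 to 5 days, with 60 to 100 brains dissected per sample. In each, cells carrying the reporter nlstdTomato under the named driver were sorted by FACS, 885 and 754 cells for SS02238 and 1250 and 1270 cells for SS30295. The other sorted libraries were of EPG neurons (lines SS00096 and SS00131), PEG neurons (SS02191) and PEN2 neurons (SS02232), 2 libraries a line, with the same reporter, and 2 libraries were of whole brain RNA (WB).

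D7 neurons, also written Δ7, are local neurons of the protocerebral bridge, whose arbors link distant columns of that structure. They are known as glutamatergic cells of the circuit that carries the fly's heading, in which EPG, PEG and PEN2 neurons are columnar cells. A split-GAL4 line puts the activation domain and the DNA-binding domain of GAL4 under separate enhancers, so that GAL4 works only in cells that express both. Different lines for 1 cell type can therefore mark different subsets of that type, or other cells beside it. The question this comparison addresses is how far RNA from nominally the same cells differed between the D7 lines. The lines also differed in the number of cells sorted and in a number in the library titles, described below. Dependence on the line itself, apart from these, was therefore not tested.

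The second library of SS02238 has conflicting names. One header row of the deposited table gives it a driver number that the series otherwise uses for another cell type, R4d, while its library name, title and driver label read SS02238 and its cell type row reads D7. The title of the second SS30295 library also differs by 1 digit from its driver label. Both were kept as labelled, and the counts over all genes and over the gene lists are also given without the second SS02238 library. Whether the 2 libraries of a line came from separate groups of flies is not stated, so the spread between them may be technical. The SE and p-values do not rest on the D7 pairs alone. They use the spread within the pairs of all 6 sorted lines, moderated by that of other genes of like level. A gene can therefore miss the threshold although its D7 libraries of each line lie close together.

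The 4 D7 libraries differed in yield. At 1 FPKM or more, 5174 and 4347 genes were detected in the SS02238 libraries, against 5522 and 6106 in those of SS30295. The summed FPKM of fly genes was 66.0 and 34.4 times that of the ERCC spike-ins, synthetic RNAs added to each sample, in SS02238, against 302 and 388.7 times in SS30295. The amount of spike-in per library is not given. Ribosomal RNA made up 76.2% and 79.0% of the FPKM in SS02238, and 76.0% and 71.9% in SS30295. Of 1272 genes at 30 FPKM or more in WB, 46 and 52 were listed at 0 in the SS02238 libraries and 29 and 21 in the SS30295 libraries, so a listed 0 need not mean absence. Read depth is unknown, and in bulk RNA fewer cells of a kind and less RNA per cell cannot be told apart.

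Both lines carried the D7 profile. VGlut (FBgn0031424), which loads glutamate into vesicles, stood at 402 and 311 FPKM in SS02238, against 378 and 371 FPKM in SS30295. The lines overlapped in these deposited values, although after scaling by the trimmed mean of M values (TMM) both SS02238 libraries lay above both of SS30295. The log2 difference of the scaled values, SS02238 minus SS30295, was 0.27 ± 0.73 (SE, n = 2 each, 95% confidence interval -1.33 to 1.86, limma adjusted p = 0.979). The LIM homeobox gene Lmx1a (FBgn0052105) was at 81.0 and 114 FPKM in SS02238 and at 112 and 120 FPKM in SS30295. The homeobox gene hbn was at 19.2 and 15.8 FPKM in SS02238 and at 15.6 and 20.7 FPKM in SS30295, overlapping only before scaling, and was listed at 0 in all 8 libraries of the other sorted types. The tyramine receptor gene TyrR was at 27.8 and 12.3 FPKM in SS02238 and at 19.8 and 36.7 FPKM in SS30295, again overlapping. Proc, the precursor of the neuropeptide proctolin, was at 174 and 183 FPKM in SS02238 and at 126 and 173 FPKM in SS30295. These genes came from earlier results on the same libraries, so their height in D7 is given as a check of the labels and not as a finding. In the deposited FPKM the second SS02238 library was the lowest of the 4 at VGlut and TyrR and the highest at Proc. It was within the range of the other 3 at Lmx1a and hbn. Its scaling factor was the smallest of the 4, at 0.796 against 1.06 to 1.26. After scaling it was the highest of the 4 at VGlut, Lmx1a, Proc and hbn, and still the lowest at TyrR.

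SerT, the plasma membrane serotonin transporter, separated the lines within the D7 profile. It stood at 31.1 and 26.5 FPKM in SS02238, against 92.7 and 102 FPKM in SS30295, and at 0.17 FPKM or less in EPG, PEG and PEN2. Both SS30295 libraries lay above both SS02238 libraries, but the difference of -1.38 ± 0.79 log2 did not pass (adjusted p = 0.712). The chloride channel gene pHCl-1 was likewise lower in SS02238, at 72.0 and 52.1 FPKM, than in SS30295, at 104 and 114 FPKM, with a difference of -0.47 ± 0.44 log2 (adjusted p = 0.872). Of the 4 genes of monoamine synthesis and transport tested, SerT favoured SS30295 and 3 favoured SS02238, where 15.6% of all genes tested favoured SS02238 and 23.2% favoured SS30295, a gene favouring a line if after scaling both libraries of that line lay above both of the other. Ddc, the decarboxylase of dopamine and serotonin synthesis, was at 23.8 and 32.4 FPKM in SS02238 and at 11.7 and 10.35 FPKM in SS30295 (1.59 ± 0.80 log2, adjusted p = 0.628). The tyrosine hydroxylase gene ple was at 3.44 and 16.01 FPKM in SS02238 and at 2.19 and 1.57 FPKM in SS30295 (1.86 ± 0.95 log2, adjusted p = 0.628). The neuronal tryptophan hydroxylase gene Trhn was listed at 0 in all 4 libraries, and the vesicular transporter gene Vmat reached at most 0.64 FPKM in SS02238 and 0.05 FPKM in SS30295.

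**Figure D1:**
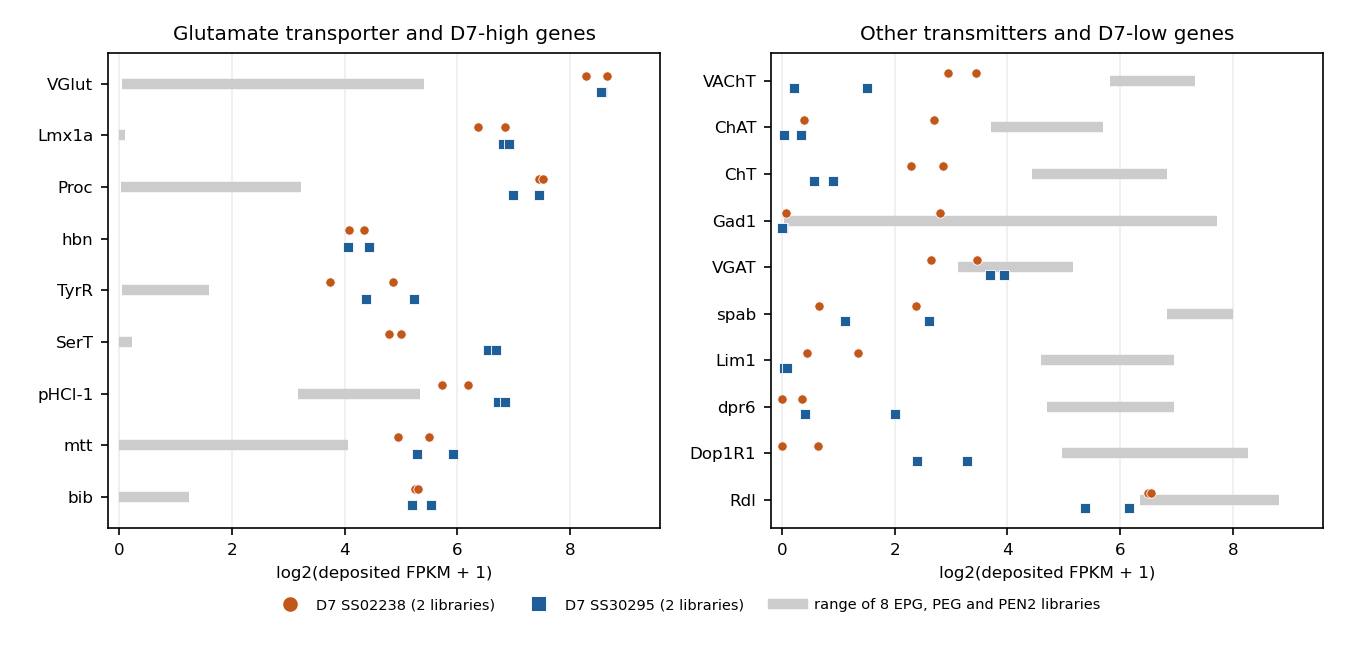
Deposited FPKM on a log2(FPKM + 1) scale for VGlut and genes high in D7 (left) and for other transmitter genes and genes low in D7 (right), with SS02238 libraries as circles, SS30295 libraries as squares and the range of the 8 EPG, PEG and PEN2 libraries as grey bars. Both lines lie beyond the grey bar for all 9 genes on the left, SerT separates the lines, and VAChT and ChT are nearer to the other types in SS02238 than in SS30295.

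Genes of acetylcholine release were low in both lines, VAChT and ChT less so in SS02238. VAChT, the vesicular acetylcholine transporter, was at 6.69 and 9.93 FPKM in SS02238, against 0.16 and 1.84 FPKM in SS30295 and 55.4 to 161 FPKM in the other sorted types. The groups did not overlap, at 2.56 ± 0.50 log2, with an adjusted p of 0.13. The choline transporter gene ChT was at 3.87 and 6.26 FPKM in SS02238 and at 0.49 and 0.87 FPKM in SS30295 (2.04 ± 0.53 log2, adjusted p = 0.213), although 69.5% of its exonic bases are shared with the annotated gene CG46318. ChAT, which makes acetylcholine and shares 8.54% of VAChT's exonic bases, was at 5.52 and 0.31 FPKM in SS02238 and at 0.02 and 0.26 FPKM in SS30295. ChAT was not among the genes tested, since only the first SS02238 library reached 1 FPKM. The second SS02238 library, at 0.31 FPKM, was near the floor and close to SS30295. ChT reached 1 FPKM in the SS02238 libraries only, so it entered the comparison through the line in which it was higher.

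Other genes that are high in EPG, PEG and PEN2 cells fell on both sides. Of the 10 D7-low genes of earlier results, which include VAChT and ChT, 5 were tested, and after scaling 3 did not overlap and were higher in SS02238, against 1 in SS30295 (15.6% and 23.2% of all genes tested). The LIM homeobox gene Lim1, not among those tested, was at 0.36 and 1.55 FPKM in SS02238 and at 0.02 and 0.07 FPKM in SS30295, against 23.3 FPKM or more in the other types. The peptide precursor gene spab, at 114 FPKM or more in the 8 other sorted libraries, was at 0.58 and 4.21 FPKM in SS02238 and at 1.17 and 5.08 FPKM in SS30295, with no separation. The adhesion gene dpr6 was at 0.28 and 0 FPKM in SS02238 and at 0.32 and 2.99 FPKM in SS30295. Dop1R1, a dopamine receptor gene, was at 0 and 0.56 FPKM in SS02238, against 8.77 and 4.27 FPKM in SS30295 and 30.3 to 308 FPKM in the other types, so its separation ran the opposite way to that of VAChT (adjusted p = 0.305). Gad1, which makes GABA, reached 5.99 FPKM in the second SS02238 library and 0.05 FPKM or less in the other 3. Rdl, the GABA-gated chloride channel, was at 89.2 and 92.7 FPKM in SS02238 and at 40.4 and 70.1 FPKM in SS30295 (1.11 ± 0.40 log2, adjusted p = 0.447). A part of other neurons in these values was not tested.

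Markers of glia, of photoreceptors, and of haemocytes, fat body and muscle were mostly low in both lines, apart from Eaat2, norpA and Tm1. Of 21 glial genes, 2 and 3 reached 1 FPKM in the SS02238 libraries and 3 and 6 in the SS30295 libraries, and their FPKM summed to 36.5 and 24.6 in SS02238 and to 36.7 and 65.3 in SS30295. Most of that sum was Eaat2, at 32.5 and 18.9 FPKM in SS02238, 29.7 and 43.4 FPKM in SS30295, and 36.2 and 35.4 FPKM in WB. The glial transcription factor gene repo was listed at 0 in 3 libraries and at 0.04 FPKM in the second of SS30295. The 15 photoreceptor genes summed to 36.1 and 27.9 FPKM in SS02238 and to 30.3 and 53.3 FPKM in SS30295. Most of that sum was the phospholipase C gene norpA, at 28.8 and 27.7 FPKM in SS02238, 22.5 and 47.5 FPKM in SS30295 and 4.47 to 101 FPKM in the other sorted types. The rhodopsin gene ninaE was at 0 in both SS02238 libraries and at 5.34 and 0.07 FPKM in SS30295. The 10 Kenyon cell genes, most of them also used by other neurons, summed to 182 and 217 FPKM in SS02238 and to 295 and 356 FPKM in SS30295. Of the 7 tested, 0 favoured SS02238 and 4 (57.1%) favoured SS30295, against 15.6% and 23.2% of all genes. The 14 haemocyte, fat body and muscle genes summed to 73.9 and 44.9 FPKM in SS02238 and to 45.0 and 22.8 FPKM in SS30295, and nearly all of it was the widely expressed tropomyosin gene Tm1.

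The reporter and driver transcripts were present in both lines. The transcript nls-tdTomato was at 1222 and 922 FPKM in SS02238, against 1473 and 1525 FPKM in SS30295, and at 7.06 and 7.13 FPKM in WB. A second fluorescent transcript in the table, myr-GFP-p10, ran the other way, at 427 and 353 FPKM in SS02238 and at 266 and 237 FPKM in SS30295. The activation domain, Gal4-AD, was at 7.62 and 3.05 FPKM in SS02238 and at 2.45 and 2.07 FPKM in SS30295. The DNA-binding domain, Gal4-DBD, was at 21.3 FPKM in the first SS02238 library and listed at 0 in the second, against 22.1 and 12.5 FPKM in SS30295.

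Over all 5672 genes, limma called 0 between the lines at an adjusted p under 0.05 (percent called 0), and the smallest adjusted p was 0.11. At an unadjusted p under 0.05 there were 480 genes, 8.46% of those tested, with 178 higher in SS02238 and 302 higher in SS30295. The median SE of a log2 difference was 0.914. The count depended on the libraries: without the first SS02238 library 15 genes were called, without the second 0, and without the first or second SS30295 library 2 or 6, where a lone library is assumed to vary like the other groups. With WB in the fit, which brings a pair of very similar libraries into the estimate of spread, 17 genes were called, AstC, roX1, VAChT and CG31221 among them. With every gene above 0 in any of the 4 libraries tested, 20 of 11379 were called. An exact permutation test of 2 against 2 libraries cannot give a two-sided p below 0.333.

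The other pair of lines for 1 cell type gave a like count. Between the EPG lines SS00096 and SS00131 the same fit called 1 of 5471 genes (0.0183%) and found 385 (7.04%) at an unadjusted p under 0.05. That gene was AstC, described below.

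Libraries of 1 line were not always closer to each other than to the other line. Over the 5672 genes, Pearson's r of log2(scaled FPKM + 1) was 0.658 between the SS02238 libraries and 0.763 between the SS30295 libraries, and 0.648 to 0.713 for the 4 pairs of different lines. Spearman's rho gave the same picture, at 0.582 and 0.677 within the lines and 0.563 to 0.626 between them. The first SS02238 library was closer to both SS30295 libraries (0.692 and 0.713) than to the second SS02238 library. Between the SS02238 libraries 1191 genes (21.0%) lay over 2 log2 apart, against 602 (10.6%) between the SS30295 libraries. With the EPG, PEG and PEN2 libraries, the second SS02238 library had r of 0.574 to 0.637 and the other 3 D7 libraries 0.616 to 0.700. These values run across genes, which are not independent, and all 4 libraries share the low FPKM at which dropouts weigh most.

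After scaling, both libraries of 1 line lay above both of the other at 885 genes in favour of SS02238 (15.6%) and at 1318 in favour of SS30295 (23.2%). In the deposited FPKM, without scaling, the counts were 588 and 1675, and the median log2 difference of all genes was -0.354 in place of -0.088. Every single gene given below as not overlapping separated on both scales, while the counts for gene lists are those after scaling. The surplus in SS30295 lay among low genes: the lower line was listed at 0 in both libraries for 143 of the 1318 genes, against 10 of the 885. With a mean of at least 10 FPKM in the higher line, 512 genes favoured SS02238 and 521 favoured SS30295. By construction more genes separate when a library is left out. The counts for SS02238 and SS30295 were then 1904 and 2560 without the first SS02238 library, 1935 and 2167 without the second, 1429 and 2020 without the first SS30295 library, and 1570 and 2022 without the second.

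For these genes the other sorted types fell on either side. Of the 512 genes higher in SS02238, the median of EPG, PEG and PEN2 lay nearer to the higher line for 182 (35.5%), and of the 521 higher in SS30295 for 289 (55.5%).

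**Figure D2:**
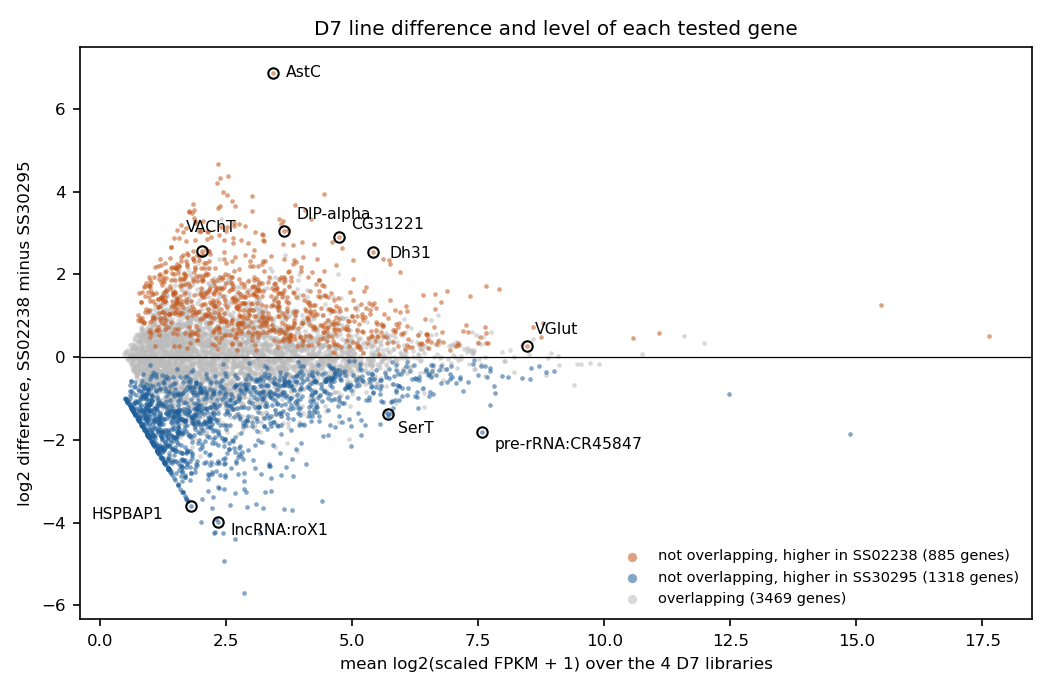
Log2 difference, SS02238 minus SS30295, against the mean log2(scaled FPKM + 1) of the 4 D7 libraries for the 5672 tested genes, coloured by whether both libraries of 1 line lay above both of the other. For a gene listed at 0 in a line, such as AstC and HSPBAP1, the plotted difference depends on the pseudocount of 1, and the blue edge at the lower left holds genes listed at 0 in SS02238.

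A neuropeptide gene and a non-coding RNA were among the 5 genes of the smallest adjusted p that are named here, without passing. AstC (FBgn0032336), the precursor of the neuropeptide allatostatin C, was at 114 and 98.9 FPKM in SS02238 and listed at 0 in both SS30295 libraries (adjusted p = 0.11). Without the second SS02238 library its adjusted p was 0.28, and over 16 alternatives it was 0.0296 to 0.28. It was at 262 and 443 FPKM in EPG SS00096 and listed at 0 in both EPG SS00131 libraries (adjusted p = 0.0491). That call was lost with no filter on low values (adjusted p = 0.114), and over 4 alternatives its adjusted p was 0.00115 to 0.114. In the remaining types AstC was at 7.35 and 4.02 FPKM in PEG and at 28.5 and 0 FPKM in PEN2, and in WB at 62.0 and 64.8 FPKM. AstC was therefore high in both libraries of 1 of 2 lines in each of 2 cell types, and listed at 0 in the other line of each.

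The second was lncRNA:roX1 (FBgn0019661), a non-coding RNA of the dosage compensation complex that acts on the male X chromosome. It was at 0.25 and 0.25 FPKM in SS02238, against 27.7 and 18.2 FPKM in SS30295, a difference of -3.99 ± 0.70 log2 (adjusted p = 0.11). No other sorted library was above 1.44 FPKM, and WB was at 7.36 and 6.83 FPKM. All 4 libraries are labelled female. Its partner roX2 was at 0.2 FPKM or less in all 4 libraries. The complex's male-limited subunit gene msl-2 was at 2.61 and 2.45 FPKM in SS02238 and at 5.71 and 10.4 FPKM in SS30295 (-1.02 ± 1.06 log2, adjusted p = 0.897). Sxl, the switch gene of female development, was at 35.4 and 35.0 FPKM in SS02238 and at 68.0 and 65.8 FPKM in SS30295 (-0.56 ± 0.37 log2, adjusted p = 0.767). The msl-2 and Sxl values are per gene and show neither splice forms nor protein. The sex of the sorted cells was not tested.

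Both AstC and the spike-in ratio also followed a number in the library titles whose meaning is not stated. Its value was 5 for both SS02238 libraries and 7 for both SS30295 libraries, 6 for EPG SS00096 and 8 for EPG SS00131, and 7 or 8 for PEG and PEN2. The 4 libraries numbered 5 or 6 held 98.9 FPKM or more of AstC, and the 8 numbered 7 or 8 held 28.5 or less. Fly gene FPKM was 34.4 to 88.2 times the spike-in FPKM in these 4 libraries and 129 to 388.7 times in the other 8. In the D7 and EPG comparisons the line and this number cannot be told apart. The roX1 values did not follow the number, since both PEG libraries, also numbered 7, held 0.23 and 0.06 FPKM.

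**Figure D3:**
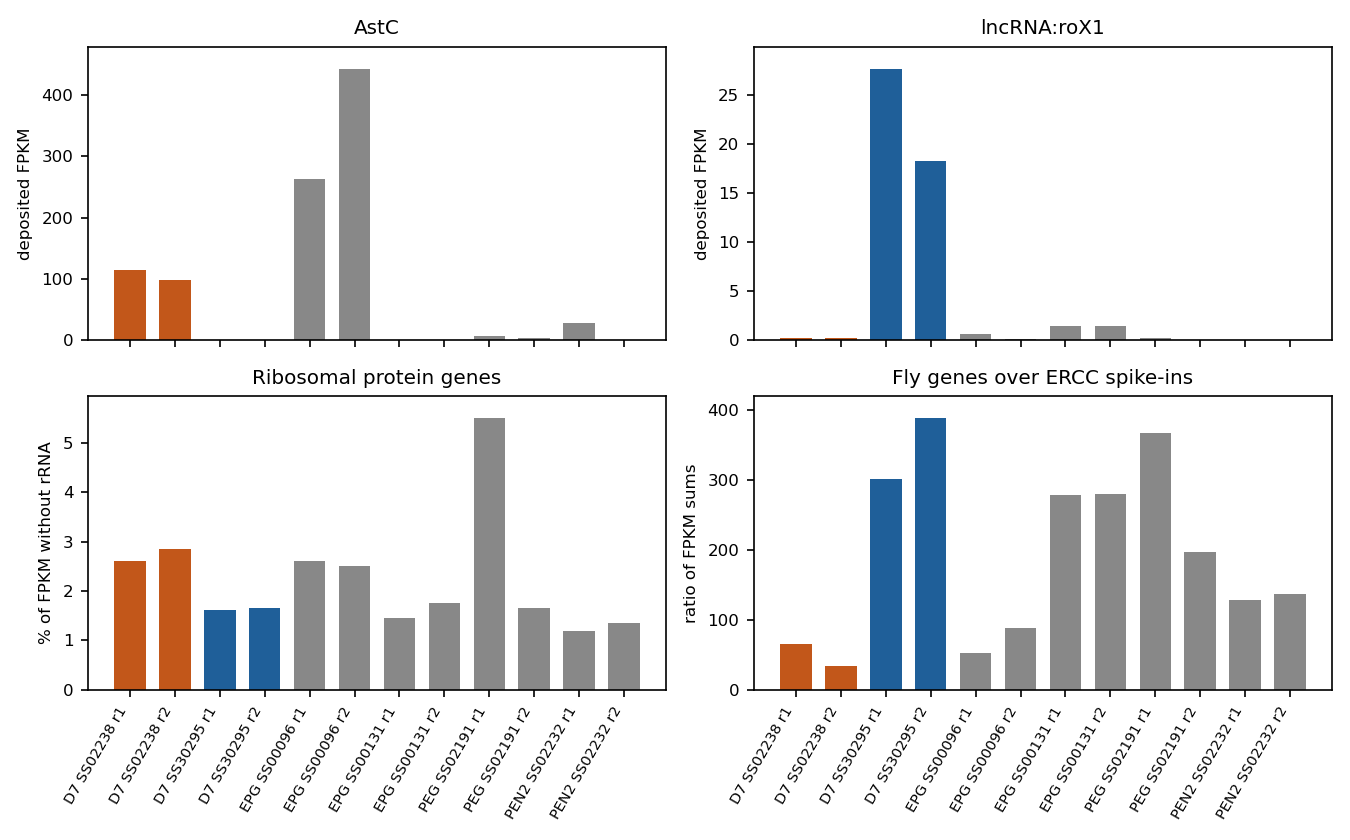
Deposited FPKM of AstC and lncRNA:roX1, the share of ribosomal protein genes in the FPKM without rRNA, and the ratio of fly gene FPKM to ERCC FPKM, with 1 bar for each of the 12 sorted libraries (D7 SS02238 orange, D7 SS30295 blue, other types grey). AstC is high in SS02238 and EPG SS00096, roX1 only in SS30295 among these 12, and the spike-in ratio is lowest in SS02238 and EPG SS00096.

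Across genes the D7 and EPG line differences had little in common. Of 4499 genes tested in both, the Pearson correlation of the 2 log2 differences was 0.0815, given as a description. Of 734 such genes not overlapping and higher in SS02238, 162 (22.1%) were also not overlapping and higher in SS00096, and 130 (17.7%) were higher in SS00131. Of 1015 higher in SS30295, 150 (14.8%) were higher in SS00096 and 225 (22.2%) in SS00131. Of the 2750 genes that overlapped between the D7 lines, 480 (17.5%) were higher in SS00096 and 517 (18.8%) in SS00131. Over all genes tested in EPG the shares were 17.9% and 19.2%, so the departures were small.

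More of the ribosomal protein genes favoured SS02238 than SS30295. Of 79 tested, 0 were called, 29 (36.7%) did not overlap and were higher in SS02238, and 6 (7.59%) did not overlap and were higher in SS30295, against 15.6% and 23.2% of all genes. Their median log2 difference was 0.84, against -0.09 over all genes, and 64 of the 79 were above 0. RpL36A was at 22.3 and 12.3 FPKM in SS02238, against 0.88 and 1.82 FPKM in SS30295 (3.18 ± 1.19 log2, adjusted p = 0.478). RpL23 was at 33.6 and 15.8 FPKM in SS02238 and at 0.23 and 10.5 FPKM in SS30295 (adjusted p = 0.499). RpL34b ran the other way, at 0 and 0.34 FPKM in SS02238 and at 13.3 and 5.82 FPKM in SS30295 (adjusted p = 0.404). Without the first SS02238 library the counts higher in SS02238 and in SS30295 were 42 and 14, without the second 48 and 9, and without the first or second SS30295 library 45 and 13 or 46 and 11. All 5672 genes gave 1904 and 2560, 1935 and 2167, 1429 and 2020, and 1570 and 2022 in the same order.

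As a share of the FPKM outside rRNA, ribosomal protein genes made up 2.61% and 2.85% in SS02238 and 1.62% and 1.66% in SS30295. In EPG they made up 2.61% and 2.52% in SS00096 and 1.45% and 1.76% in SS00131, and 27 of 79 did not overlap and were higher in SS00096, against 3 in SS00131. The median log2 difference of the list in EPG was 0.98. Over all genes tested in EPG, 17.9% were not overlapping and higher in SS00096 and 19.2% in SS00131. In D7 and EPG the lines with the higher share had the lower spike-in ratio. Among the other types PEG held 5.51% and 1.66% at ratios of 368 and 197, and PEN2 held 1.19% and 1.35%, the lowest shares of the 12, at ratios of 129 and 137. The first PEG library also held 34.0% of its FPKM in mitochondrial genes, against 2.51% in the second. Its glial genes summed to 3849 FPKM, against 302 FPKM in the second. The part of RNA yield in this was not tested.

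Genes of the mitochondrial respiratory chain gave counts whose lean to SS02238 was weakest without the first SS02238 library. Of 57 nuclear-encoded members tested, 0 were called, 12 (21.1%) did not overlap and were higher in SS02238 and 4 (7.02%) were higher in SS30295, against 15.6% and 23.2% of all genes, with a median of 0.37 log2. COX4, a subunit of cytochrome c oxidase, was at 71.8 and 45.5 FPKM in SS02238 and at 13.1 and 6.89 FPKM in SS30295 (2.78 ± 0.62 log2, adjusted p = 0.168). ND-SGDH, a subunit of complex I, was at 19.4 and 26.9 FPKM in SS02238 and at 4.7 and 1.28 FPKM in SS30295 (2.98 ± 0.97 log2, adjusted p = 0.335). Without the first SS02238 library 23 genes were higher in SS02238 and 22 higher in SS30295, where all 5672 genes gave 1904 and 2560. The counts were 28 and 6 without the second (49.1% and 10.5%, against 34.1% and 38.2% of all genes). They were 22 and 9 without the first SS30295 library (1429 and 2020 of all genes), and 22 and 13 without the second (1570 and 2022). Of 15 genes of the mitochondrial genome, 1 did not overlap and was higher in SS02238 and 0 were higher in SS30295. In the vacuolar proton pump 6 of 15 tested genes did not overlap and were higher in SS02238 and 3 in SS30295, with a median of -0.01 log2, against the same all-gene shares. Its subunit gene Vha14-1 was at 31.6 and 35.2 FPKM in SS02238 and at 6.66 and 1.15 FPKM in SS30295 (adjusted p = 0.499). Between the EPG lines the respiratory chain genes leaned to 1 line as well. Of 59 tested there, 16 did not overlap and were higher in SS00096, against 5 in SS00131. The shares of all genes tested in EPG were 17.9% and 19.2%.

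The counts for the remaining lists, most of them short, are given beside the 15.6% and 23.2% of all genes, and were also taken without the second SS02238 library. In that case 34.1% of all genes favoured SS02238 and 38.2% favoured SS30295. The counts favouring SS02238 and SS30295 were then 4 and 4 of 9 neuropeptide genes, 3 and 8 of 18 peptide receptor genes, 4 and 5 of 11 glutamate receptor genes, and 3 and 4 of 9 nicotinic receptor genes. They were 1 and 3 of 8 octopamine and tyramine receptor genes, 7 and 3 of 15 potassium channel genes, 3 and 9 of 16 sodium and calcium channel genes, and 3 and 2 of 5 D7-low genes. Active zone genes gave 6 and 12 of 21, pan-neuronal genes 1 and 6 of 8, cAMP pathway genes 2 and 7 of 12, dpr and DIP genes 5 and 8 of 20, and beat and side genes 4 and 8 of 15. Guidance genes gave 18 and 16 of 49, homeobox genes 4 and 5 of 13, other transcription factor genes 3 and 7 of 18, activity-regulated genes 2 and 5 of 8, and clock genes 3 and 5 of 8. Chaperone genes gave 7 and 4 of 19, P450 and glutathione transferase genes 8 and 10 of 23, proton pump genes 7 and 6 of 15, and mitochondrial genome genes 2 and 3 of 15.

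**Figure D4:**
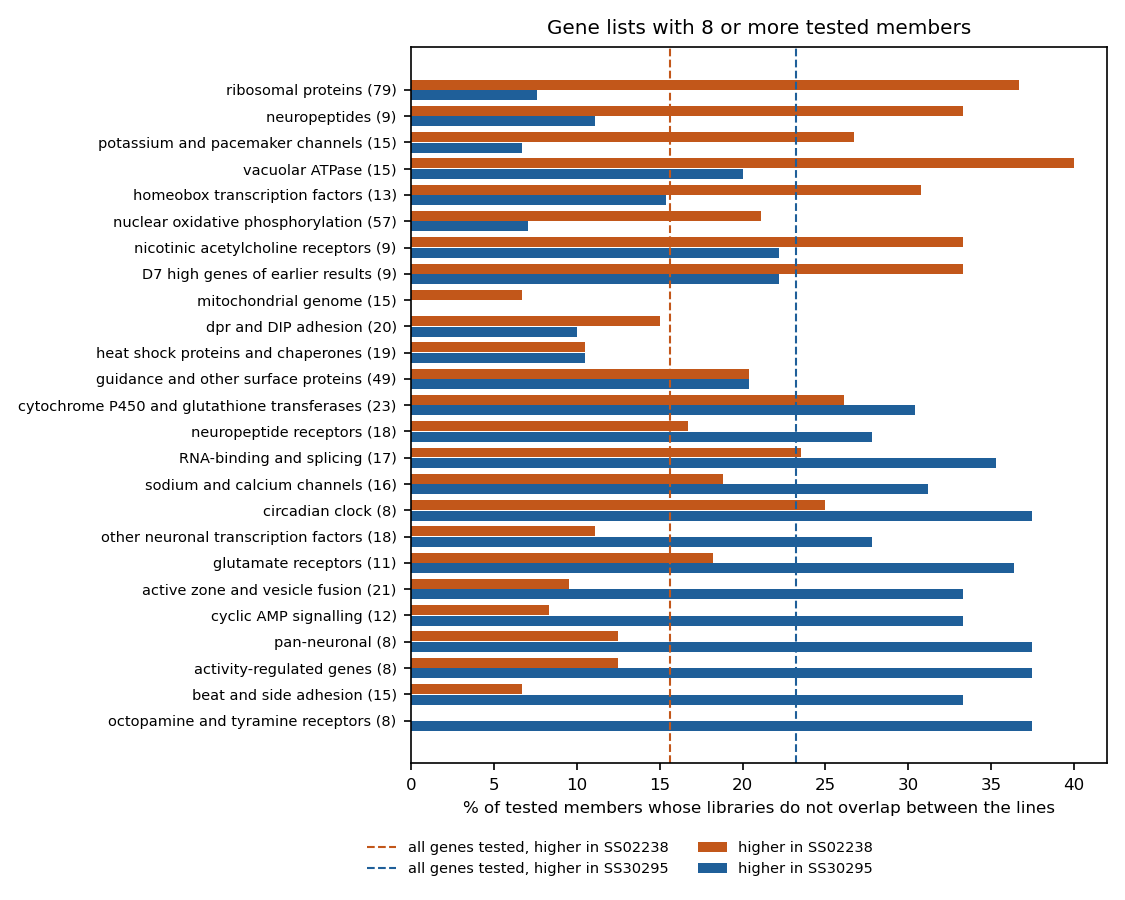
Share of tested members, in percent, whose libraries did not overlap and were higher in SS02238 (orange) or in SS30295 (blue), for 25 gene lists with 8 or more tested members (number in brackets), with dashed lines at 15.6% and 23.2% for all genes tested. Ribosomal proteins are at 36.7% and 7.59%, while lists of 8 to 20 genes change by 5 or more points with 1 gene.

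Among neuropeptides, 9 of 47 listed genes were tested, and 3 did not overlap and were higher in SS02238 against 1 in SS30295 (15.6% and 23.2% of all genes). Beside AstC, Dh31, the precursor of diuretic hormone 31, was at 86.3 and 102 FPKM in SS02238 and at 35.0 and 10.7 FPKM in SS30295 (2.54 ± 0.83 log2, adjusted p = 0.344). Elsewhere among the sorted types Dh31 reached at most 15.8 FPKM. Proc, given above, was the third, with a difference of 0.62 ± 0.75 log2 (adjusted p = 0.925). Of 18 peptide receptor genes tested, 3 favoured SS02238 and 5 favoured SS30295. Lgr4, which encodes a leucine-rich repeat G protein-coupled receptor, was at 17.4 and 5.23 FPKM in SS02238 and at 0.01 and 0 FPKM in SS30295 (3.51 ± 0.77 log2, adjusted p = 0.164), with 29.2% of its exonic bases shared with CG12096 on the opposite strand. The tachykinin receptor gene TkR99D was at 16.4 and 11.99 FPKM in SS02238, against 34.9 and 30.1 FPKM in SS30295 (-0.82 ± 0.95 log2, adjusted p = 0.922). The neuropeptide F receptor gene NPFR was at 1.68 and 0.16 FPKM in SS02238 and at 6.47 and 6.07 FPKM in SS30295 (adjusted p = 0.628).

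Receptors for small transmitters fell on both sides. DopEcR, a receptor for dopamine and ecdysone, was at 20.2 and 55.2 FPKM in SS02238 and at 17.8 and 2.26 FPKM in SS30295 (2.43 ± 0.78 log2, adjusted p = 0.335), against 81.9 to 312 FPKM in the other sorted types. Of 11 glutamate receptor genes, 2 favoured SS02238 and 4 favoured SS30295. The metabotropic receptor gene mGluR was at 6.14 and 8.17 FPKM in SS02238 and at 46.4 and 19.96 FPKM in SS30295 (-1.63 ± 0.75 log2, adjusted p = 0.594), and the NMDA receptor subunit gene Nmdar2 was at 9.67 and 13.4 FPKM in SS02238 and at 28.2 and 21.4 FPKM in SS30295. Neither overlapped between the lines. Of 9 nicotinic acetylcholine receptor subunits tested, 3 favoured SS02238 and 2 favoured SS30295, and nAChRbeta2 was at 15.9 and 36.3 FPKM in SS02238 and at 13.9 and 7.36 FPKM in SS30295 (1.49 ± 0.79 log2, adjusted p = 0.655). Of 8 octopamine and tyramine receptors, 0 favoured SS02238 and 3 (37.5%) favoured SS30295, against 15.6% and 23.2% of all genes, with Octbeta1R at 5.51 and 5.22 FPKM in SS02238 and at 12.99 and 8.89 FPKM in SS30295.

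Ion channel genes fell on both sides. Of 15 potassium and pacemaker channel genes, 4 (26.7%) favoured SS02238, 1 (6.67%) favoured SS30295 and 10 overlapped, against 15.6% and 23.2% of all genes favouring each line. SLO2, a large-conductance potassium channel, was at 8.03 and 8.93 FPKM in SS02238 and at 3.46 and 3.54 FPKM in SS30295 (1.36 ± 0.78 log2, adjusted p = 0.712). Shal, an A-type potassium channel, was the 1 gene favouring SS30295, at 3.36 and 4.43 FPKM in SS02238 and at 8.2 and 11.2 FPKM in SS30295. Of 16 sodium and calcium channel genes, 3 (18.8%) favoured SS02238 and 5 (31.2%) favoured SS30295, against the same shares of all genes. Ca-beta, the auxiliary subunit of voltage-gated calcium channels, was at 27.7 and 13.2 FPKM in SS02238 and at 64.4 and 63.0 FPKM in SS30295 (-1.34 ± 0.42 log2, adjusted p = 0.335). Teh4 and Teh1, both related to the sodium channel subunit TipE, lay on the same side. Teh4 was at 4.15 and 1.19 FPKM in SS02238 and at 21.7 and 15.5 FPKM in SS30295, and Teh1 was at 19.2 and 11.9 FPKM in SS02238 and at 32.9 and 49.2 FPKM in SS30295.

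Synaptic genes also fell on both sides. Of 21 active zone and vesicle fusion genes, 2 (9.52%) favoured SS02238 and 7 (33.3%) favoured SS30295, against 15.6% and 23.2% of all genes, with a median log2 difference of -0.13. Syx1A, the membrane SNARE of vesicle fusion, was at 98.9 and 21.7 FPKM in SS02238 and at 111 and 181 FPKM in SS30295 (-1.24 ± 0.48 log2, adjusted p = 0.499). Syt1, the calcium sensor of release, was at 168 and 81.1 FPKM in SS02238 and at 224 and 231 FPKM in SS30295 (-0.61 ± 0.34 log2, adjusted p = 0.687). Of the 8 pan-neuronal genes 1 favoured SS02238 and 3 favoured SS30295, and fne, an RNA-binding gene of the elav family, was at 30.2 and 29.4 FPKM in SS02238 and at 64.4 and 52.1 FPKM in SS30295. In the cAMP pathway 1 of 12 genes (8.33%) favoured SS02238 and 4 (33.3%) favoured SS30295, against the same shares of all genes. The kinase gene Pka-C1 was at 45.4 and 40.8 FPKM in SS02238 and at 84.9 and 96.1 FPKM in SS30295 (-0.71 ± 0.35 log2, adjusted p = 0.617), and Epac, an exchange factor that binds cAMP, was at 5.63 and 0.28 FPKM in SS02238 and at 12.97 and 16.4 FPKM in SS30295 (adjusted p = 0.316).

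Cell-surface genes gave single large differences in both directions. DIP-alpha, an immunoglobulin protein that pairs with dpr proteins at synapses, was at 29.5 and 34.6 FPKM in SS02238 and at 3.18 and 4.81 FPKM in SS30295 (3.04 ± 0.80 log2, adjusted p = 0.213). No other sorted library held more than 1.32 FPKM of it. Of the 20 dpr and DIP genes tested, 3 favoured SS02238 and 2 favoured SS30295, and dpr14 was at 9.76 and 16.6 FPKM in SS02238 and at 4.33 and 4.66 FPKM in SS30295. Of 15 beat and side genes, 1 (6.67%) favoured SS02238 and 5 (33.3%) favoured SS30295, against 15.6% and 23.2% of all genes, with side at 12.9 and 13.7 FPKM in SS02238 and at 25.3 and 26.5 FPKM in SS30295. Of 49 guidance and other surface genes, 10 favoured each line (20.4% each). Nlg3, a neuroligin, was at 7.19 and 4.67 FPKM in SS02238 and at 0.67 and 0.12 FPKM in SS30295 (2.46 ± 0.62 log2, adjusted p = 0.207). The axon guidance receptor gene robo3 was at 6.31 and 8.24 FPKM in SS02238 and at 1.84 and 0.99 FPKM in SS30295. Fas2, a homophilic adhesion molecule, was at 5.93 and 9.99 FPKM in SS02238, against 20.9 and 35.2 FPKM in SS30295 (-1.36 ± 0.92 log2, adjusted p = 0.771).

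Transcription factor genes also fell on both sides. Of 13 homeobox genes tested, 4 (30.8%) favoured SS02238 and 2 (15.4%) favoured SS30295, against 15.6% and 23.2% of all genes. Of 18 other neuronal transcription factor genes, 2 (11.1%) favoured SS02238 and 5 (27.8%) favoured SS30295. The zinc finger gene rn was at 17.5 and 33.8 FPKM in SS02238 and at 12.5 and 12.5 FPKM in SS30295 (1.24 ± 0.92 log2, adjusted p = 0.805). The gene mamo was at 53.3 and 34.9 FPKM in SS02238 and at 63.7 and 127 FPKM in SS30295 (-0.70 ± 0.47 log2, adjusted p = 0.767). Of 8 activity-regulated genes, 1 favoured SS02238 and 3 favoured SS30295. The Fos homologue kay was at 7.68 and 5.3 FPKM in SS02238 and at 28.2 and 21.8 FPKM in SS30295 (-1.48 ± 0.77 log2, adjusted p = 0.639), while sr, an Egr-type immediate early gene, was at 10.6 and 28.2 FPKM in SS02238 and at 10.4 and 5.18 FPKM in SS30295. Among 8 clock genes, 2 favoured SS02238 and 3 favoured SS30295. The clock activator gene cyc was at 21.3 and 8.08 FPKM in SS02238 and at 5.73 and 3.99 FPKM in SS30295, and the repressor gene tim at 7.28 and 3.4 FPKM in SS02238 and at 9.83 and 25.3 FPKM in SS30295.

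Of 19 chaperone genes, 2 favoured each line (10.5% each), against 15.6% and 23.2% of all genes for SS02238 and SS30295. Hsc70-3, the chaperone of the endoplasmic reticulum, was at 27.2 and 34.0 FPKM in SS02238 and at 101 and 100.1 FPKM in SS30295 (-1.35 ± 0.57 log2, adjusted p = 0.548). Hsp83, the fly Hsp90, was at 50.4 and 22.4 FPKM in SS02238 and at 114 and 74.3 FPKM in SS30295 (-1.08 ± 0.60 log2, adjusted p = 0.687). Of 23 cytochrome P450 and glutathione transferase genes, 6 (26.1%) favoured SS02238 and 7 (30.4%) favoured SS30295. GstS1 was listed at 0 in both SS02238 libraries and at 4.8 and 17.98 FPKM in SS30295.

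The genes with the largest test statistics held few that were named in these lists. CG31221 (FBgn0051221), with no role given here, was at 94.3 and 45.6 FPKM in SS02238 and at 5.65 and 18.1 FPKM in SS30295 (2.89 ± 0.45 log2, adjusted p = 0.11). It was at 155 to 650 FPKM in the other sorted types and at 499 and 500 FPKM in WB, so both D7 lines stood below them. Hasp, a scaffold of the synaptic cleft, was the most abundant of the first 15 genes higher in SS02238. It was at 193 and 184 FPKM in SS02238 and at 75.0 and 82.6 FPKM in SS30295 (1.60 ± 0.36 log2, adjusted p = 0.168). Urod, an enzyme of haem synthesis, was at 7.56 and 14.4 FPKM in SS02238, against 0.05 and 0.09 FPKM in SS30295 and 0.66 FPKM or less in the other sorted types (adjusted p = 0.11). The spliceosome gene SNRPG was at 16.9 and 22.2 FPKM in SS02238 and at 0 and 1.48 FPKM in SS30295. The gene lov, which encodes a BTB-domain nuclear protein, was at 8.84 and 10.98 FPKM in SS02238 and at 0.01 and 0.13 FPKM in SS30295. The remaining genes of this group were CG17568, CG8483, CG12104, Non2, twr, CG10650 and CG13579, of which twr shares 44.3% of its exonic bases with agt on the opposite strand.

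On the side of SS30295, several of the first 15 were non-coding RNAs or were listed at 0 in SS02238. HSPBAP1 (FBgn0263025) was listed at 0 in both SS02238 libraries and at 9.19 and 18.5 FPKM in SS30295 (adjusted p = 0.11), with 1.61 FPKM at most in the other sorted types. CG13784 was at 2.82 and 1.62 FPKM in SS02238, against 20.9 and 27.2 FPKM in SS30295 and 17.02 to 33.7 FPKM in the other sorted types (-2.68 ± 0.52 log2, adjusted p = 0.13). There SS02238, not SS30295, stood apart from the other types. CG1998 had the same form, at 4.98 and 1.63 FPKM in SS02238, against 22.4 and 37.4 FPKM in SS30295 and 13.9 to 73.6 FPKM elsewhere. CG31952 was at 0.56 and 0 FPKM in SS02238 and at 36.2 and 19.0 FPKM in SS30295, above the 6.39 FPKM that the other sorted types reached. The rRNA precursor pre-rRNA:CR45847 was at 125 and 68.9 FPKM in SS02238 and at 374 and 469 FPKM in SS30295 (-1.81 ± 0.43 log2, adjusted p = 0.196), but it is one of several near-identical copies and holds the mature rRNAs, so its value is uncertain. The rRNA-modifying snoRNA:Me28S-C2789 was listed at 0 in SS02238 and at 41.6 and 28.6 FPKM in SS30295. CR43975 was listed at 0 in both SS02238 libraries and at 2.81 and 40.4 FPKM in SS30295, and also at 0 in all 8 other sorted libraries. The gene ver, of telomere protection, was listed at 0 in SS02238 and at 15.8 and 7.38 FPKM in SS30295.

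**Figure D5:**
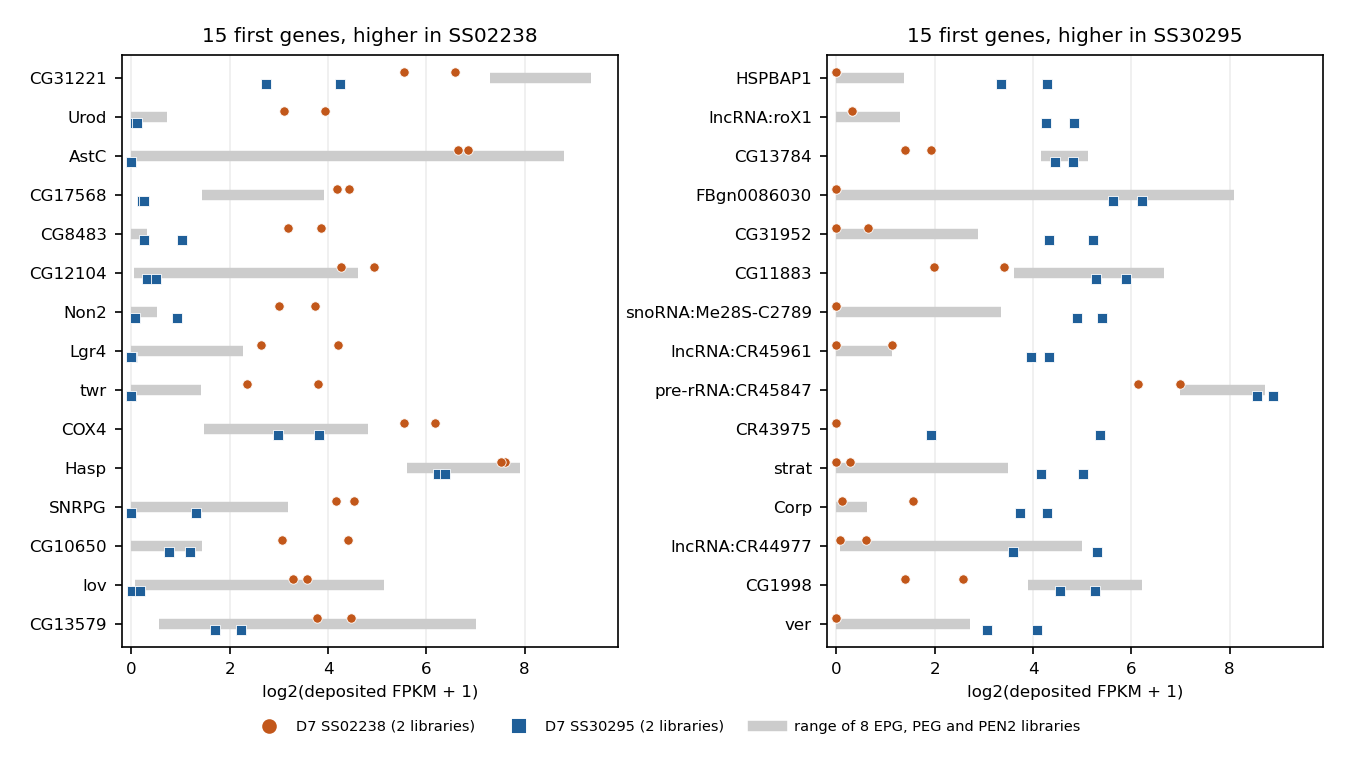
Deposited FPKM on a log2(FPKM + 1) scale of the first 15 genes per direction by limma's moderated statistic, with SS02238 libraries as circles, SS30295 libraries as squares and the range of the 8 EPG, PEG and PEN2 libraries as grey bars. None of the 30 genes passed an adjusted p of 0.05, the lines do not overlap at any of them by the rule of choice, and 1 ID has no symbol in the reference.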

How the data were processed

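The bulk table that the authors deposited held 1 FPKM value per gene and library. The header does not name the unit, which was read from the values. The submitters' processing notes name STARsolo and edgeR without versions or roles, and the aligner of the bulk libraries, the genome build, the annotation and the use of strand are not given in the sources used here. Symbols came from a reference table and matched 17540 of 17612 gene IDs, and exon overlaps came from the Ensembl annotation of the reference. Spike-ins (92) and transgenes (9) stayed out of the tests.

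FPKM of the 12 sorted libraries were scaled by the trimmed mean of M values (TMM), computed directly on the FPKM, taken as log2(FPKM + 1) and fitted with limma 3.58.1 in R 4.3.3 (moderated statistics with a mean-variance trend, 1 term per driver line, 6 terms). Fold changes on this scale understate the change of low genes. Benjamini-Hochberg adjustment ran over all 5672 genes, with calls made below 0.05. The code of the fit was run on simulated data with less noise than these libraries, which does not show how the fit behaves on them. Figures were drawn with matplotlib.

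Named were, per direction, the 15 genes with the largest moderated statistic and a mean of at least 10 FPKM in the higher line, and from each of 41 lists up to 3 non-overlapping members with at least 5 FPKM. Identity and marker genes were named in addition. Genes that separated only after scaling were left out, which was decided after the data were seen. The members and lists were chosen with earlier results of these data known, and the D7-high and D7-low genes are themselves such results. Alternatives were other scaling, pseudocounts, filters, samples in the fit, library weights, a replicate block and leaving out each library. The list counts without the second SS02238 library were added after the data were seen. The low-cell and single-cell files were not used here.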

Additional observations from a re-analysis of the deposited data

How the results depend on the processing

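The number of called genes was 0 in all alternatives but these: 20 with no filter on low values, 17 with all 14 bulk libraries in the fit (7 higher in SS02238, 10 higher in SS30295), and 0 to 15 when 1 D7 library was left out (0 to 13 higher in SS02238). Genes at an unadjusted p under 0.05 numbered 268 to 780. For the EPG lines, calls were 2 with no scaling, 0 with no filter and 16 with all 14 libraries. Only 2 pairs of replicate numbers exist, and same-numbered libraries did not deviate together (r = -0.0252). With the replicate block, 0 genes were called and 499 had an unadjusted p under 0.05.

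Non-overlapping genes higher in SS02238 were 588 without scaling and 587 with a minimum of 5 FPKM, and 1429 to 1935 with a library left out. Those higher in SS30295 were 2538 with no filter, 693 with a minimum of 5 FPKM and 2020 to 2560 with a library left out. Relative to TMM, no scaling shifted the median log2 difference of all genes by -0.266 and upper-quartile scaling by -0.101. Pearson's r within SS02238, within SS30295 and between the lines was 0.553, 0.651 and 0.556 with a pseudocount of 0.1, and 0.743, 0.842 and 0.765 with 5. With no filter it was 0.748 within SS02238 and 0.756 between the lines, and with a minimum of 5 FPKM 0.606 within SS02238. Respiratory chain genes higher in SS30295 numbered 1 with that minimum.

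Among named genes the log2 difference changed sign in 14 instances, all at adjusted p above 0.5. Without scaling these were VGlut (-0.0825), Lmx1a (-0.263), hbn (-0.0419) and bib (-0.0924), with upper-quartile scaling Lmx1a (-0.0506), and with a pseudocount of 5 spab (0.0288). With a D7 library left out, the difference ran from -1.03 to 0.16 for VGAT, -0.37 to 0.54 for Lmx1a, -0.54 to 0.18 for TyrR, -0.52 to 0.44 for mtt and -1.07 to 0.96 for spab. In 18 instances a named gene came to pass the threshold, and in 1615 direction and side stayed. The cause was not tested. Depth is unknown, and the spread between the 2 libraries of each sorted line limits what could be called.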
